A study of Mus musculus with 278 samples.

Results

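Fibroblast-like cells found in cultures of mouse skin keratinocytes were compared by how much messenger RNA of the cell-division machinery each of them carried. The members were taken from the 140 labelled cells whose library names start with GHA501A, as those with a Krt14 level below 10 TPM and a Col1a1 level of at least 100 TPM. TPM corrects a gene's reads for its length and scales every cell to the same total, so it is a share of the cell's transcripts. The rule found 83 of the 140 GHA501A cells, out of 278 labelled cells in the series. A score was computed for each cell as the mean log2(TPM + 1) of 6 genes of cell division: Mki67, Top2a, Ccnb1, Cdk1, Birc5 and Plk1. The untreated cells were ranked by the score into 16 bottom-score, 17 middle-score and 16 top-score cells, and the treated cells into 11, 12 and 11. The 54 bottom- and top-score cells entered the comparison.

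All cells came from cocultures in which WT keratinocytes and K14ΔNβ-cateninER keratinocytes, both from adult dorsal mouse skin, were mixed 9 to 1, and the study asked how cells respond to neighbours with active Wnt signalling. The transgene, driven by the promoter of Krt14, encodes a beta-catenin that escapes degradation and becomes active when its oestrogen receptor part binds 4-hydroxy-tamoxifen (4OHT). Treated cocultures received 200 nM 4OHT for 24 h and untreated cocultures received DMSO, after 24 h in which the cells attached. Single cells were then captured on a microfluidic chip for cells of 10 to 17 μm, and captures that the imaging showed to be doublets or dead were left out. The labels call every cell a keratinocyte and name no animal, strain or culture, and transgenic cells were not told apart from WT cells here. The untreated and the treated GHA501A cells are therefore 2 library sets, which served as the replicates. Cells of 1 set share a treatment label and a library series, and no label ties them to separate cultures, so they were not used as replicates of a condition. Treatment and set cannot be told apart with 1 set each, and no test of treatment was made.

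A dividing cell first copies its DNA in S phase, with the help of the MCM helicase, DNA polymerases and enzymes that make nucleotides. It then accumulates the kinases, cyclins, kinesins and kinetochore proteins that build the spindle and part the chromosomes in G2 phase and mitosis. Some of these proteins, cyclins among them, are destroyed as the cell divides. In resting cells the DREAM complex holds many genes of G2 phase and mitosis silent through a promoter element called CHR, and in dividing cells complexes with B-MYB and FOXM1 activate the same genes, often together with NF-Y at CCAAT boxes. Many S phase genes are instead controlled through E2F sites. Fibroblasts are the collagen-making cells of the dermis and divide readily in culture.

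Most fibroblast markers were found in nearly every member, whereas keratinocyte markers varied. Vim, Col1a2, Col6a1, Fn1, Sparc and Fstl1 were above 1 TPM in all 83 cells, Col3a1 in 78, Prrx1 in 82 and Twist1 in 72, whereas Dcn, a proteoglycan of dermal fibroblasts, was above 1 TPM in 26. Of 15 keratinocyte markers, 8 were above 1 TPM in 1 to 15 cells, among them Dsp in 1, Dsg3 in 2 and Cdh1 in 3, and 7 in 22 to 69 cells, namely Epcam, Itga6, Krt5, Sfn, Jup, Krt6a and Krt17. Krt5 reached at most 20.9 TPM in a member, against a median of 1504 TPM in the Krt14-expressing cells of the other library series, whose names start with AG, and Krt17, above 1 TPM in 69 members, had a median of 11.04 TPM against 14429 TPM. These AG cells also carried Sparc, Fstl1, Vim and Fn1, with medians of 661, 1607, 53.8 and 38.5 TPM. The medians of members were higher, at 1217, 3722, 1049 and 73.3 TPM. For these genes a level above 1 TPM therefore does not set members apart from keratinocytes. Prrx1 had an AG median of 1.87 TPM, and Col1a2, Col6a1, Col3a1, Twist1 and Dcn had one of 0. Kdr, Tek and Esam, which mark endothelial cells, Cd52, which marks leukocytes, and Mlana, which marks melanocytes, were at or below 1 TPM in every member. Of the markers of pericytes and smooth muscle, Cspg4 was at 0 in every member, while Acta2, also made by activated fibroblasts, was above 1 TPM in 57 members and reached 5129 TPM, Notch3 in 21, Mcam in 19 and Rgs5 in 7. Lyz2, a gene of macrophages, had a median of 108.9 TPM and Tyr, the melanin-making enzyme, a median of 5.42 TPM. The melanocyte genes Pmel and Mitf were above 1 TPM in 25 and 24 members.

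The thresholds of the rule cut through continuous levels. The member with the highest Krt14 level was at 9.52 TPM among untreated and 9.23 TPM among treated cells, and the first cells outside were at 10.4 and 10.1 TPM. With Col1a1 at 100 TPM or more, 13 untreated and 25 treated cells were left out for their Krt14 level. The lowest Col1a1 level of a member was 104.2 TPM in untreated and 278 TPM in treated cells, and 1 untreated cell lay outside at 95.6 TPM. Members made up 69% of untreated GHA501A cells (49 of 71, exact Clopper-Pearson interval at 95% from 56.9 to 79.5) and 49.3% of treated ones (34 of 69, from 37 to 61.6). These intervals cover counting error only. No pair of members had identical values, and the sequencing depth of each cell is unknown, since only TPM were used.

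The score spread widely and without a gap. Among untreated cells it had a median of 2.42 in bottom-score, 5.06 in middle-score and 8.44 in top-score cells, and among treated cells medians of 1.97, 4.58 and 8.14. The last untreated bottom-score cell was at 3.94 and the next cell at 3.97, and the top-score cells began at 7.34, above a cell at 6.98. The corresponding values in treated cells were 3.16 and 3.19, and 6.91 and 6.83. Between 4 and 7 cells of a set lay within 0.5 of each cut, so neither end is a separate class. The plot of scores by set shows 1 continuous column of cells in each set.

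**Figure D1:**
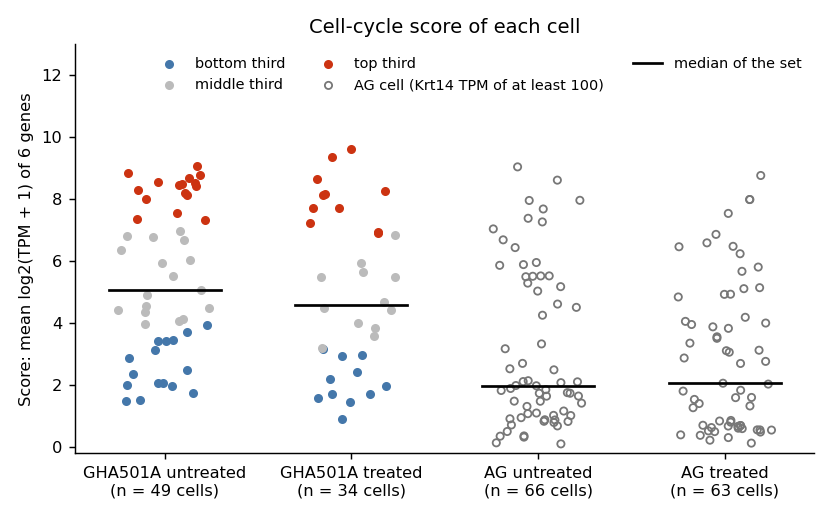
Cell-cycle score of each cell, as mean log2(TPM + 1) of the 6 score genes, in both GHA501A sets (blue, bottom-score; grey, middle-score; red, top-score cells) and, as open circles, in AG cells with a Krt14 level of at least 100 TPM; each black line is the median of a set. The medians of the fibroblast-like sets, 5.06 and 4.58, lie above those of the AG sets, 1.98 and 2.06, and no gap separates the coloured groups.

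The 6 score genes chose the cells, so their values are a description. Plk1, the kinase that drives entry into mitosis, ran from 0 to 22.1 TPM with a median of 0.441 in untreated bottom-score cells and from 16.1 to 611 TPM with a median of 158.8 in untreated top-score cells. In treated cells it ran from 0 to 6.94 TPM (median 0.753) and from 5.23 to 863 TPM (median 141.1). Bottom- and top-score cells overlapped only at the edges of their ranges, through 1 bottom-score cell in each set. Mki67, which encodes the proliferation antigen Ki-67, had medians of 0.858 and 218 TPM in untreated and of 1.08 and 329 TPM in treated bottom- and top-score cells. Top2a, the topoisomerase that untangles chromosomes, was above 1 TPM in all 83 members, with medians of 17.8 and 800 TPM in untreated and 7.02 and 640 TPM in treated cells. None of the 27 bottom-score cells had all 6 genes at or below 1 TPM, so the word resting goes beyond what their messenger RNA shows and they are called bottom-score cells.

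Of 10407 genes tested, 199 (1.91%) were called, and all but 11 of them were higher in top-score cells. The higher genes are 1.81% of those tested and the lower genes 0.106%. The difference is that of mean log2(TPM + 1) between top- and bottom-score cells, and it was called where the adjusted p of limma's moderated test over the 2 sets was under 0.05 and the difference exceeded 0.5. Differences of the higher genes ran from 0.99 to 6.89 with a median of 3.29, and 85 of these genes belong to none of the 18 gene lists used here. By size alone, 4.97% of genes were at least 1 higher and 0.971% at least 1 lower in both sets. By any amount, 34.2% were higher and 22.3% lower in both sets. The cells were sorted by genes of the same libraries, so a call says that a gene went with the score and not that it was tested in cells chosen by other means. The median difference over all genes tested was 0.10. With only 1 fibroblast-like set, and the spread taken from the AG sets described at the end, 0 genes passed limma's adjusted threshold, with 2480 genes at an unadjusted p under 0.05 without the untreated set and 1722 without the treated set, against 1235 with both sets, and all 199 called genes kept their direction. Without the filter on low values 0 genes passed as well, with 935 genes at an unadjusted p under 0.05.

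Top-score cells also had more genes above 1 TPM, with medians of 6436 against 6014 in untreated and 6334 against 6021 in treated cells. After this number was regressed out within each set, 1.11% of genes tested were higher, every one of them already among the higher genes, and 5 were lower, 4 of them among the 11. In the plot of differences by set most genes of mitosis lie to the upper right of the main cloud.

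**Figure D2:**
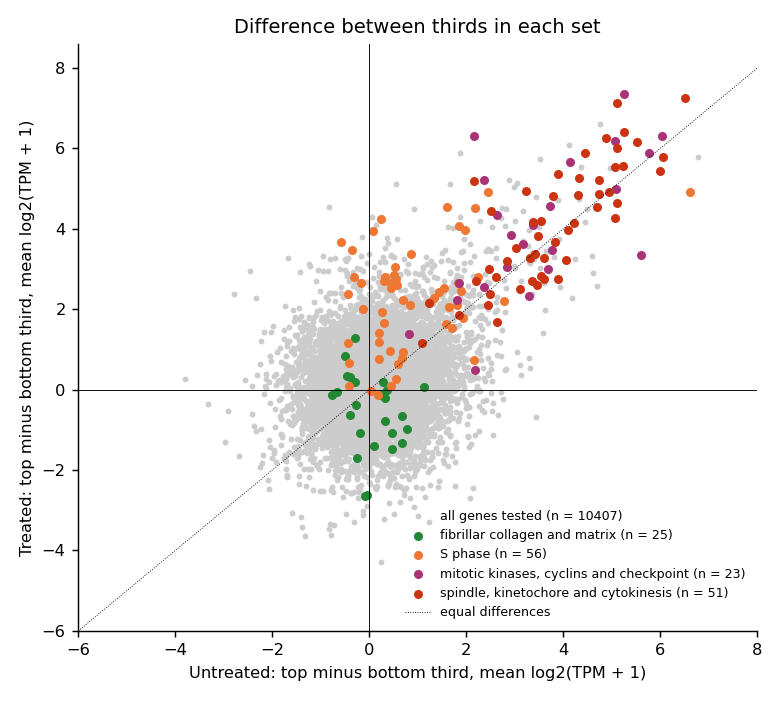
Difference in mean log2(TPM + 1) between top- and bottom-score cells in the untreated set (horizontal axis) and in the treated set (vertical axis), 1 point per gene; grey points are all 10407 genes tested, coloured points the members of 4 lists, and the dotted line marks equal differences. Spindle and mitotic kinase genes are above 0 in both sets, 46 of 56 S phase genes lie above the dotted line, with a median of 0.56 in untreated and 2.33 in treated cells, and matrix genes lie around 0 in untreated cells and partly below it in treated cells.

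Mitotic kinases, cyclins and checkpoint genes were higher in top-score cells in nearly every case. Of 23 members tested, 21 passed, where 1.81% of all genes tested were called higher. All 23 were higher in both sets, as 34.2% of all genes tested were, with a median difference of 3.63. Aurka, the kinase that matures centrosomes and builds the spindle, was at or below 1 TPM in 13 of 16 untreated and 10 of 11 treated bottom-score cells, where the highest values were 97.4 and 1.86 TPM. In top-score cells it ran from 20.3 to 443 TPM with a median of 155 (untreated) and from 0.737 to 522 TPM with a median of 150 (treated). The difference was 6.18 ± 0.58 (SE, n = 2 sets, adjusted p = 4.7e-05). The ranges overlapped through 1 bottom-score cell in each set, which lay above 4 untreated and 1 treated top-score cells.

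Aurkb, the kinase of the chromosomal passenger complex, which corrects faulty attachments of chromosomes to the spindle, differed by 5.83 ± 0.57 (SE, n = 2 sets, adjusted p = 4.7e-05). Its medians rose from 0.467 to 185.3 TPM in untreated and from 0.724 to 157.99 TPM in treated cells. Pbk, a kinase active in mitosis, differed by 6.31 ± 0.60 (SE, adjusted p = 4.7e-05), and Bub1b, which encodes the spindle checkpoint protein BubR1, by 5.63 ± 0.60 (SE, adjusted p = 9.83e-05). Foxm1, a transcription factor of G2 phase genes, was among the 21, with differences of 2.35 in untreated and 2.55 in treated cells. The members that did not pass were Nek2, a centrosome kinase (difference 1.33, adjusted p = 0.198), and Mybl2, which encodes B-MYB (1.10, adjusted p = 0.365). These and other list members outside the naming rule were picked out after their values were seen.

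The list of the spindle, the kinetochore and cytokinesis held the most called genes. Of 51 tested, 48 passed, where 1.81% of all genes tested were called higher. All 51 were at least 1 higher in both sets, as 4.97% of all genes tested were, and the median difference was 3.77. Ndc80, the kinetochore protein that grips microtubules, had the largest difference of any gene tested, 6.89 ± 0.53 (SE, n = 2 sets, adjusted p = 2.12e-05). It ran from 0 to 58.96 TPM with a median of 2.95 in untreated bottom-score cells and from 8.53 to 1003 TPM with a median of 544 in untreated top-score cells. In treated cells the ranges were 0 to 6.79 TPM (median 2.29) and 4.26 to 1721 TPM (median 629). In each set 1 top-score cell lay within the range of the bottom-score cells.

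Kif22, a kinesin that pushes chromosomes towards the middle of the spindle, stayed at or below 1.28 TPM in every untreated bottom-score cell and was at 4.44 TPM or above in every untreated top-score cell, so these groups did not overlap. The treated cells overlapped through a bottom-score cell at 74 TPM, and the difference over both sets was 5.92 ± 0.58 (SE, adjusted p = 4.89e-05). Cdca8, another subunit of the chromosomal passenger complex, differed by 5.85 ± 0.58 (SE, adjusted p = 4.89e-05), Ckap2l, a spindle protein, by 6.12 ± 0.59 (SE, adjusted p = 4.7e-05), and Kif20b, a kinesin of cytokinesis, by 5.83 ± 0.56 (SE, adjusted p = 4.7e-05). The members that did not pass were Ckap5, Cenpt and Kifc1, with differences of 2.16, 1.86 and 1.12.

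Of 15 genes of the anaphase machinery, 5 passed, where 1.81% of all genes tested were called higher. They were Cdc20, Ube2c, Pttg1, Espl1 and Cdc23. Ube2c, the ubiquitin-conjugating enzyme that works with the anaphase-promoting complex, differed by 6.29 ± 0.51 (SE, n = 2 sets, adjusted p = 2.43e-05), with medians of 1.99 and 731 TPM in untreated and 2.64 and 182.8 TPM in treated bottom- and top-score cells. The treated groups did not overlap. Cdc20, the activator of that complex, differed by 4.32 ± 0.59 (SE, adjusted p = 0.000618), but its top-score cells were mixed. They ran from 0 to 787 TPM in untreated and from 0 to 500 TPM with a median of 19.1 in treated cells, and 1 of 16 and 2 of 11 were at or below 1 TPM. Espl1, the protease that cuts cohesin, differed by 3.76 ± 0.58 (SE, adjusted p = 0.00189). The median of the whole list was 0.50, and 7 of the 15 were higher in both sets, against 34.2% of all genes tested.

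The panels of single genes show the cells behind these means.

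**Figure D3:**
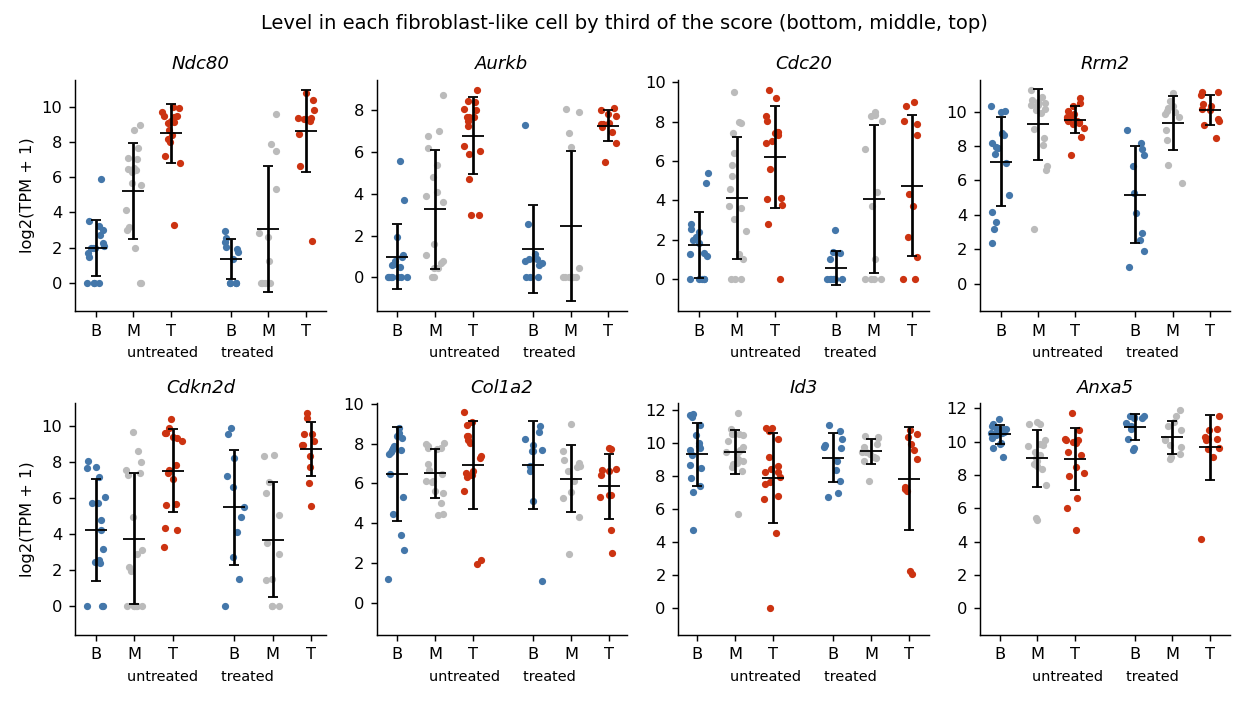
Level of 8 genes as log2(TPM + 1) in every fibroblast-like cell, by set and by bottom (B, blue), middle (M, grey) and top (T, red) part of the score, with the mean and SD over cells in black. Ndc80 is under 3 in 12 of 16 untreated and 11 of 11 treated bottom cells and above 5 in 15 of 16 and 10 of 11 top cells, while the groups of Id3 and Anxa5 overlap over most of their range.

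The promoter windows of 6 of these genes are shown because each carries the CHR element named above close to the start. They come from RefSeq (build GRCm38.p6), read 5′ to 3′ along the gene, and cover 250 bases before and 50 bases after the gene's start. Capitals mark every TTTGAA or TTCGAA on either strand (TTCAAA is TTTGAA on the other strand).
Plk1, chr7:122159185-122159484, plus strand: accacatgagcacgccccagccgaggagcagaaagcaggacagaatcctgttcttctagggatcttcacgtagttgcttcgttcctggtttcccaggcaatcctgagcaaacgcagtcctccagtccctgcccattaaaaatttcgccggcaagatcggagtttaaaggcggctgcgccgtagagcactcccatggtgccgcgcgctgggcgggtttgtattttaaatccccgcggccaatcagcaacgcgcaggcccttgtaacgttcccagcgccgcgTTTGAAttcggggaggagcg
Ndc80, chr17:71526808-71527107, minus strand: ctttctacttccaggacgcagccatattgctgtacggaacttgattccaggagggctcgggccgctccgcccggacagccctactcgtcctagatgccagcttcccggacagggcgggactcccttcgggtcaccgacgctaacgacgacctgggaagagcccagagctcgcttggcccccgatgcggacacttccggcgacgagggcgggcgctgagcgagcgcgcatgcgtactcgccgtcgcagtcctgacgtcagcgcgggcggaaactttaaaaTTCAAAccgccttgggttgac
Ube2c, chr2:164769679-164769978, plus strand: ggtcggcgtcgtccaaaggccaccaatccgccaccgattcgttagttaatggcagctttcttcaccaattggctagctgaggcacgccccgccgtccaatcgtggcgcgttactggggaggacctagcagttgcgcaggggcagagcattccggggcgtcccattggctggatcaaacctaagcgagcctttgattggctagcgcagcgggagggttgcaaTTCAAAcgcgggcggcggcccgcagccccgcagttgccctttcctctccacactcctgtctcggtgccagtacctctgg
Kif22, chr7:127042371-127042670, minus strand: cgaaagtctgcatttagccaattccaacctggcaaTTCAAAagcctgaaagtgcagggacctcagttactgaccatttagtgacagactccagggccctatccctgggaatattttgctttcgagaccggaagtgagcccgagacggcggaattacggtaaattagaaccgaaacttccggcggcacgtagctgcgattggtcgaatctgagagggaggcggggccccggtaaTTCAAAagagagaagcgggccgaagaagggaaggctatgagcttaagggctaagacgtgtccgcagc
Cdca8, chr4:124936868-124937167, minus strand: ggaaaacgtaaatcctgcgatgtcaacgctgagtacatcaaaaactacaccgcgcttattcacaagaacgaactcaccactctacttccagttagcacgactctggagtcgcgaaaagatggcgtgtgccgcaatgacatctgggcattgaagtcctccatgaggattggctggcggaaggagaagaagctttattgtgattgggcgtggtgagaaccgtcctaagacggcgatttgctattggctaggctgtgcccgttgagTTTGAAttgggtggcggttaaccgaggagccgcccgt
Cdc20, chr4:118437294-118437593, minus strand: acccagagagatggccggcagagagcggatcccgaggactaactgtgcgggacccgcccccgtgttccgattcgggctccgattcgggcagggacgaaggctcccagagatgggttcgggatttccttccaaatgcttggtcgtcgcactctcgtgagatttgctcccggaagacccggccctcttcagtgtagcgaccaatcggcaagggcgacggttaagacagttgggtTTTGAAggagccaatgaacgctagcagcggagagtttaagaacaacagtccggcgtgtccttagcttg
Counted from the start, the element began at 31 in Plk1, 30 in Ndc80 and 14 in Cdca8, and upstream at -29 in Ube2c, -18 in Cdc20 and -17 in Kif22, which has another one at -215. CCAAT boxes (CCAAT on either strand) numbered 6 in the Ube2c window, 4 in that of Cdca8, 2 each in those of Kif22 and Cdc20, 1 in that of Plk1 and 0 in that of Ndc80.

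The same letters were counted in all windows as a description. Of the higher genes that had a window, 79 (55.6%) held a CHR element, against 21.7% of all 27025 genes with a window and 16.3% of the genes tested that had one. An element that began in the last 100 bases of the window, which surround the start, was found in 41.5% of the higher genes and in 6.12% of all genes. Of the 10 genes with the largest differences 8 had a window, and all 8 held one there. In the spindle list the share with an element anywhere was 70.5% (31 of 44) and in the S phase list 19.5% (8 of 41). The E2F sequences TTTCGCGC, TTTGGCGC, TTTCCCGC and TTTGCCGC, on either strand, were found in 36.6% of S phase windows and in 2.61% of all windows by gene, and in 9.86% of the higher genes. CCAAT was found in 70.4% of the higher genes and in 41.1% of all genes with a window. A match in letters is not a binding site.

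Genes of chromosome structure were next, with 17 of 28 passing, where 1.81% of all genes tested were called higher. All 28 were higher in both sets, against 34.2% of all genes tested (median 2.07). The 17 include 6 subunits of the condensins, the ring complexes that compact chromosomes for mitosis. Ncaph differed by 4.96 ± 0.61 (SE, n = 2 sets, adjusted p = 0.000234) and Smc2 by 4.10 ± 0.59 (SE, adjusted p = 0.0011). Smc2 had medians of 30 and 160.3 TPM in untreated and 1.39 and 134.2 TPM in treated bottom- and top-score cells, and Asf1b, a histone chaperone, differed by 1.88 in untreated and 5.88 in treated cells. The difference between sets was not tested.

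S phase genes followed the score less closely. Of 56 tested, 10 passed, where 1.81% of all genes tested were called higher. In both sets 45 were higher and none was lower, against 34.2% and 22.3% of all genes tested. The median difference was 0.56 in untreated and 2.33 in treated cells. Rrm2, the ribonucleotide reductase subunit that supplies DNA building blocks, ran from 4.09 to 1311 TPM (median 244) in untreated bottom-score cells and from 179.2 to 1759 TPM (median 746) in untreated top-score cells. In treated cells its medians were 37.7 and 1127 TPM. The difference was 3.68 ± 0.47 (SE, n = 2 sets, adjusted p = 0.00036), and the groups overlapped in both sets.

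Tk1, thymidine kinase, differed by 3.29 ± 0.52 (SE, adjusted p = 0.00217), about equally in both sets, and Rpa2, which coats single-stranded DNA, by 3.35 ± 0.67 (SE, adjusted p = 0.0129). Of the 6 subunits of the MCM helicase, Mcm3 passed with 2.24 in untreated and 2.81 in treated cells, and the other 5 differed by 0.08 to 0.55 in untreated and by 2.70 to 3.96 in treated cells. The largest difference in the list was that of Fbxo5, 5.76 ± 0.62 (SE, adjusted p = 9.83e-05). Fbxo5 encodes Emi1, which inhibits the anaphase-promoting complex from S phase to the start of mitosis.

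The S phase level of single cells shows which bottom-score cells carried these genes. The mean level of the 56 S phase genes ran from 1.77 to 5.76 in untreated bottom-score cells (median 3.31), from 2.71 to 6.16 in middle-score cells (median 4.74) and from 3.53 to 5.14 in top-score cells (median 4.45). In 4 of 16 untreated bottom-score cells it reached the median of the top-score cells. Among treated cells the medians were 2.39, 4.64 and 5.21, and 0 of 11 bottom-score cells reached the top-score median. Of the middle-score cells, 11 of 17 untreated and 3 of 12 treated ones were at or above the top-score median. The mean level of 79 mitotic genes, in contrast, rose over the 3 groups in both sets, with medians of 2.14, 3.80 and 5.99 in untreated and 1.61, 3.05 and 5.69 in treated cells. The score is itself a mean of genes of cell division such as Plk1 and Ccnb1. A closer link to mitotic than to S phase genes is therefore partly built into the ranking.

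Over the cells of a set, which share a library series and a treatment label, the score had a Spearman correlation of 0.95 with the mitotic mean in both sets and of 0.39 (49 untreated cells) and 0.64 (34 treated cells) with the S phase mean. In the plot of both means the untreated cells lie along an arc with middle-score cells at its highest S phase levels, while in treated cells the median S phase level was highest in top-score cells.

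**Figure D4:**
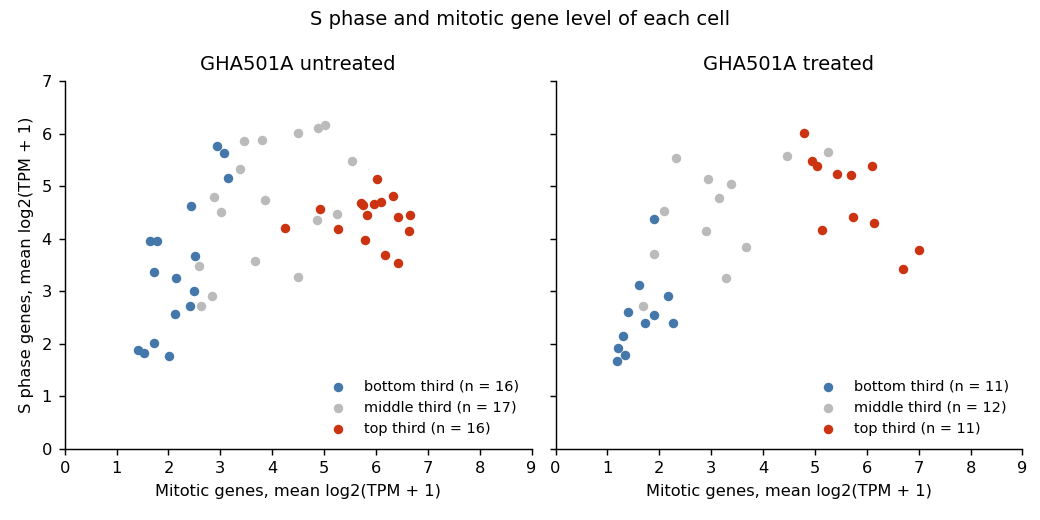
Mean log2(TPM + 1) of 56 S phase genes (vertical axis) against that of 79 mitotic genes (horizontal axis) in each fibroblast-like cell, for untreated (left) and treated cells (right), coloured by bottom-, middle- and top-score cells. The highest S phase level is 6.16, in a middle-score cell, among untreated cells and 6.02, in a top-score cell, among treated cells, and 3 untreated bottom-score cells have S phase levels above 5.

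When the cells were sorted by the S phase genes in place of the 6 score genes, 1.78% of genes tested were higher and 0.126% lower, of which 99 and 1 genes were among those called by the score. Of the genes called by the score and tested in both rankings, every higher one and 10 of the 11 lower ones kept their direction.

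Calls were few among the genes that decide entry into the cycle and those that hold it, as they were over all genes tested (1.91%). Of 20 cyclins, CDKs and E2F genes of G1 phase, 0 passed limma's threshold, and 9 were higher and 1 lower in both sets. Over all genes tested, 34.2% were higher and 22.3% lower in both sets. The median difference of the list was 0.24. Rbl1, which encodes the pocket protein p107 of the DREAM complex, had the largest, with 2.08 in untreated and 2.39 in treated cells (adjusted p = 0.0758). Of 26 CDK inhibitors and p53 targets, 1 passed. It was Cdkn2d, which encodes the CDK4 and CDK6 inhibitor p19, with a difference of 3.27 ± 0.44 (SE, n = 2 sets, adjusted p = 0.000533). Cdkn2d ran from 0 to 261 TPM with a median of 22 in untreated bottom-score cells and from 8.73 to 1350 TPM with a median of 209 in untreated top-score cells, and its treated medians were 43.6 and 496 TPM. Its medians in middle-score cells, 6.46 and 8.31 TPM, were below those of both ends, so it did not rise step by step with the score. The related Cdkn2c differed by 0.94 in untreated and 0.55 in treated cells (adjusted p = 0.707).

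The 11 lower genes showed smaller differences, from -0.67 to -2.29, and all of them overlapped between the groups. So did all but 4 of the higher genes in untreated and all but 18 in treated cells. Overlap was not counted over all genes tested, so these counts have no share to be set against and are descriptions. Anxa5, a membrane-binding annexin, ran from 542 to 2633 TPM (median 1511) in untreated bottom-score cells and from 24.6 to 3395 TPM (median 818) in untreated top-score cells. In treated cells its medians were 2226 and 1135 TPM, and the difference was -1.36 ± 0.23 (SE, n = 2 sets, adjusted p = 0.00404). Another annexin, Anxa2, differed by -0.73 ± 0.17 (SE, adjusted p = 0.0445). Below the lowest bottom-score cell lay 6 of 16 untreated and 2 of 11 treated top-score cells for Anxa5, and 4 of 16 and 1 of 11 for Anxa2, whose lowest untreated level was 40.4 TPM in top-score and 1349 TPM in bottom-score cells.

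Id3, an inhibitor of basic helix-loop-helix transcription factors, had medians of 798 and 299 TPM in untreated and 836 and 523 TPM in treated bottom- and top-score cells, with 1 untreated top-score cell at 0. Its difference was -1.34 ± 0.31 (SE, adjusted p = 0.0366). Ddah1, which degrades an inhibitor of nitric oxide synthase, differed by -2.27 ± 0.51 (SE, adjusted p = 0.0317) and Tvp23b, a protein of the Golgi, by -2.29 ± 0.55 (SE, adjusted p = 0.047). B2m, the light chain of MHC class I, differed by -0.33 in untreated and -1.59 in treated cells (adjusted p = 0.0315), and Cd63, a tetraspanin of late endosomes, by -0.45 and -0.97 (adjusted p = 0.0351). Golt1b, Eif3h, Fam162a and Rpl4 made up the rest. With log2 of the mean TPM of a group in place of the mean of log2 values, which gives single low cells less weight, 4 genes were lower and 0 of these 11 were among them, though all 11 kept their direction. With Krt14 below 1 TPM, which leaves 7 untreated and 2 treated cells at each end, 8 of the 11 kept it and B2m, Golt1b and Fam162a did not. None of the 11 was called lower with the 25% at each end of the ranking or without the set in the model.

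The summed level of the 3 immune markers of the marker list that were in the table, Cd52, Lyz2 and Fcer1g, moved in the same direction as the lower genes. It ran from 2.07 to 3071 TPM (median 221) in untreated bottom-score cells and from 0 to 2366 TPM (median 95) in untreated top-score cells, and in treated cells from 0 to 5253 TPM (median 267) and from 1.58 to 810 TPM (median 37.3). Cd52 was at 0 in all members, so that the sum is almost wholly Lyz2. The part of this in the lower genes was not tested. The 15 keratinocyte markers in the table summed to medians of 19.4 and 31.8 TPM in untreated and 53.9 and 43.8 TPM in treated bottom- and top-score cells.

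Genes of the connective tissue showed no call, but only 1.91% of all genes tested were called, so 0 calls in short lists say little. Of 25 genes listed as fibrillar collagen and matrix, 0 passed limma's threshold, with a median difference of -0.04 in untreated and -0.38 in treated cells. The 25 include Smim6, not a matrix gene, which entered under Eln, the symbol of elastin. It differed by 0.37 in untreated and 0 in treated cells and counts in the values of this list. Col6a3 and Bgn differed by -0.10 and -0.04 in untreated and by -2.65 and -2.62 in treated cells (adjusted p = 0.438 and 0.295). The mean level of the matrix list had a Spearman correlation with the score of 0.05 over 49 untreated and -0.36 over 34 treated cells. The summed level of the 12 fibroblast markers in the table had medians of 9709 and 8505 TPM in untreated and 9316 and 5982 TPM in treated bottom- and top-score cells. Treated Bgn medians were 397 and 198 TPM in bottom- and top-score cells, and untreated ones 164.4 and 249 TPM. Of 18 genes that process and crosslink collagen and 21 contractile genes 0 passed, with median differences of -0.21 and -0.17. The difference between sets was not tested.

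Genes of growth and metabolism had few calls, as did all genes tested (1.91%), but more of them were lower in both sets than of all genes. Of 18 glycolysis genes, 0 passed, but 13 were lower in both sets, as 22.3% of all genes tested were, and the median was -0.52. Gpi1, glucose-6-phosphate isomerase, differed by -1.11 in untreated and -1.49 in treated cells (adjusted p = 0.138) and Aldoa, aldolase A, by -0.91 and -0.81 (adjusted p = 0.115). Of 74 cytosolic ribosomal protein genes 1 passed, Rpl4, with -0.67 ± 0.12 (SE, adjusted p = 0.00613). Of the 74, 56 were lower in both sets, with a median of -0.22, and their part of the TPM total had medians of 7.82% and 7.504% in untreated and 8.07% and 7.65% in treated bottom- and top-score cells.

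Of 74 nuclear genes of oxidative phosphorylation 1 passed, Atp5s, an ATP synthase coupling factor, which was higher by 2.55 ± 0.59 (SE, adjusted p = 0.0351), and the median of the list was -0.17. In both sets 36 of the 74 were lower and 10 higher. Of 37 proteasome genes 0 passed, 19 were lower and 5 higher in both sets, and the median was -0.27. Over all genes tested, 22.3% were lower and 34.2% higher in both sets. Immediate early genes (16 tested), chemokines, cytokines and IGF-binding proteins (19) and Wnt genes (21) had 0 calls each and medians of 0.00, 0.14 and 0.00. With 1.91% of all genes tested called, 0 calls in lists of this length say little. At an unadjusted p under 0.05, limma's test found 8.65% of all genes higher and 3.22% lower, 11.9% in all.

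A list of 14 regulators and marker genes that the study names for epidermal states had 0 calls, where 1.91% of all genes tested were called, and a median of -0.14. The study also names Foxm1, which was called higher, as given above with the mitotic genes, and E2f1 and E2f4, which stand in the list of G1 phase and were not called (0.01 and -0.29, and -1.36 and 0.92, in untreated and treated cells). Mt2, a metallothionein, differed by -0.07 in untreated and -1.65 in treated cells, Krt10, a keratin of differentiating epidermis, by 1.09 and 0.15, and Bcl3, an NF-kB cofactor, by 0.98 and 0.25, none of them past the threshold (adjusted p = 0.344, 0.785 and 0.748). In 7 of the 14 the sign differed between the sets, as it did in 4479 of all 10407 genes tested. The plot of lists sets these groups beside each other.

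**Figure D5:**
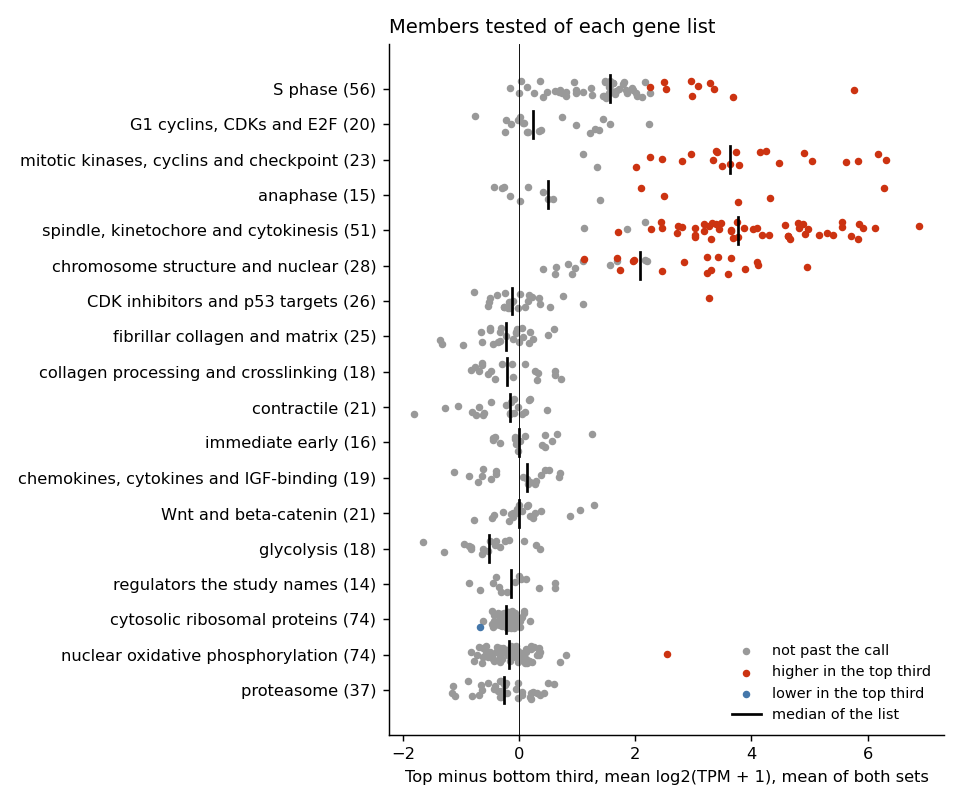
Difference in mean log2(TPM + 1) between top- and bottom-score cells, averaged over both sets, for each member tested of 18 gene lists (number tested in parentheses); red points are genes called higher, blue ones called lower, grey ones not called, and the black bar is the median of a list. Mitotic kinase and spindle genes lie between 1.10 and 6.89, S phase genes spread from -0.16 to 5.76, and the medians of the matrix, glycolysis and ribosomal protein lists are -0.22, -0.52 and -0.22.

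Outside the 6 score genes, those whose level ranked most like the score over all 83 members, ranked within each set, were Cenpf and Ube2c (Spearman correlation 0.85 each), Prc1 and Rccd1 (0.82 each) and Cenpe (0.80). Cenpf and Cenpe act at the kinetochore and Prc1 bundles microtubules in the middle of the spindle. Rccd1 is called beside Prc1, and their gene bodies overlap on opposite strands by 21810 bases of chromosome 7. The library kit does not mark strand, so reads of the shared part cannot be told apart. Rccd1 medians were 0.567 and 85 TPM in untreated and 0.259 and 78 TPM in treated bottom- and top-score cells. In all, 36 of the 199 called genes are overlapped by another gene of the table, and 8 by another called gene, among them Kif20a and Cdc23.

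The AG cells gave a comparison with keratinocytes. Cells with Krt14 at 100 TPM or more numbered 66 untreated and 63 treated, none of the AG cells met the rule for fibroblast-like cells, and series and cell type cannot be told apart. Their score medians, 1.98 and 2.06, lay below those of the fibroblast-like sets, and Plk1 was above 1 TPM in 39.4% (exact interval 27.6 to 52.2) and 31.7% (20.6 to 44.7) of them, against 71.4% (56.7 to 83.4) and 67.6% (49.5 to 82.6) of members. These intervals, too, cover counting error within a set only and do not compare the series. With 2 sets against 2, the exact permutation test cannot go below p = 0.333, which is its value for the difference in median score, 2.80.

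Sorted in the same way, the AG cells showed all but 3 of the higher genes in the same direction, by the mean of both AG sets. The groups are relative to each set and not matched in score. Top-score cells began at 4.51 (untreated) and 3.88 (treated) in AG, against 7.34 and 6.91 in members. Bottom-score cells ended at 1.42 and 0.84 in AG, against 3.94 and 3.16 in members. At least 0.5 higher in both AG sets were 155 of them (82.4%), against 10.2% of all genes tested. Of the 11 lower genes, 8 had the same direction and 0 were at least 0.5 lower in both AG sets. Id3 was 1.26 and 1.51 higher in AG top-score cells, where it was lower in fibroblast-like ones. Cdkn2d differed by 0.04 and 0.88 in the AG sets, against 3.30 and 3.24 in the fibroblast-like sets, and Rccd1 by -0.27 and 0.09, against 4.97 and 5.52.

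These contrasts between cell kinds were tested as an interaction in limma, and 0 of 12179 genes passed, with 896 (7.36%) at an unadjusted p under 0.05. The smallest adjusted p was that of Rccd1, 0.17, with a difference between the series of 5.33 ± 0.53 (SE, n = 2 sets in each series). For Id3 and Cdkn2d the adjusted p was 0.553 and 0.673. Without the set in the model, 9 genes passed.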

How the data were processed

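Single-cell RNA-seq libraries (SMART-Seq v4 and Nextera XT) were processed by the authors with FastQC, Cutadapt, Tophat against mouse build GRCm38 with multiply mapped reads discarded, and featureCounts. They deposited TPM for 14145 genes, each cell with the same total, with no counts, so read depth is unknown. Of 294 columns, 278 have labels and 16 were not used. Of the AG cells, 8 carry a name and a treatment label that conflict and were not used.

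Here log2(TPM + 1) was averaged within each set and score group, and the 4 means were fitted with limma 3.58.1 (R 4.3.3), with the library set as block, a trend on mean level and Benjamini-Hochberg adjustment. Genes needed TPM over 1 in more than 5 cells. This leaves 1 residual degree of freedom per gene, against a median prior of 13.5, so the spread is largely borrowed from other genes. The labels name no separate cultures, so p-values and SE measure the spread between sets, largely as estimated over other genes. This spread may be technical or go with the treatment label, which was not tested. An exact sign-flip test of 2 sets cannot go below p = 0.5. A call needed an adjusted p under 0.05 and a difference over 0.5. The 6 score genes, Krt14 and Col1a1 were not tested.

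Genes were named as the 10 largest called differences in each direction (TPM over 1 in at least 50% of cells of the higher group), the score genes, the regulators, up to 4 members of each list with the largest difference of 1 direction in both sets, and the 5 genes most rank-correlated with the score. The members and lists were chosen with earlier results of these data known. The fit was tested on simulated data. Alternatives (pseudocount, filters, log2 of mean TPM, other score groups and thresholds, genes detected, block, added groups, each set left out) are given in the closing section. Tables were computed in Python 3.11.15 (pandas 2.3.3, numpy 2.4.6), exact tests in scipy 1.17.1 and plots in matplotlib 3.10.9. Gene positions came from GENCODE M21. Of the genes this rule selects, 1 is not reported here.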

Additional observations from a re-analysis of the deposited data

Results flagged for a closer look

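Of 14 regulators and marker genes that the study names for epidermal states, 7 moved in opposite directions in the untreated and the treated set. So did 4479 of all 10407 genes tested. Values are differences in mean log2(TPM + 1) between top- and bottom-score cells. In each of the 7 the difference between sets was not tested. Smad3, a transducer of TGF-beta signals, differed by 0.83 in untreated and -1.23 in treated cells. Smad4, its partner, differed by 1.22 and -0.53, Yy1, a zinc-finger factor, by 0.46 and -1.17, and Kdm5b, a histone demethylase, by 0.054 and -1.41. Gata6 differed by -0.50 and 0.34, Itgb1, an integrin subunit, by 0.32 and -0.25, and Cdh11, a cadherin of mesenchymal cells, by 0.048 and -0.067.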

How the results depend on the processing

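The share of genes called, 1.81% higher and 0.106% lower in the analysis as reported, moved by over 1.5 times under several alternatives, in which the cause was not tested. It was 0.634% and 0.0384% with log2 of the mean TPM, 0.545% and 0.0303% with Col1a1 at 1000 TPM or more (11 and 5 cells at each end), 0.0111% and 0% with Krt14 below 1 TPM (7 and 2 cells at each end), 1.11% and 0.048% with the number of genes detected regressed out, and 0% for both without the filter on low values. The lower share was 0.202% with the ranking split in its middle, 0.0577% with the 25% at each end, 0.0673% with the middle-score means added and 0.0288% with the AG means added. With the replicate block left out it was 1.19% higher and 0% lower (1120 genes at an unadjusted p under 0.05), and 9 genes passed the test between series. The block is the treatment label, since the 2 sets carry no other pairing. With each set left out in turn, the shares of higher and of lower genes were both 0 to 0%, and the genes that differed between series numbered 0 to 0. The share of higher genes stayed within 1.5 times with a pseudocount of 0.1, the 10% filter, both other splits of the ranking, the S phase ranking, and either group of means added.

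Most values of named genes kept their direction and their side of the threshold (1208 of them), 262 kept their direction but lost the call and 55 changed sign. With log2 of the mean TPM these were Mmp2 (-0.96), Egr1 (-0.10), Smad3 (0.058) and Itgb1 (-0.050), and with a pseudocount of 0.1 Gata6 (0.074). With the ranking split in its middle they were C3 (0.079), Smad3 (0.16), Yy1 (0.68) and Cdh11 (0.042), and with the 25% at each end Ndufa9 (0.0013), Gata6 (0.48), Mrpl33 (-0.031) and Itgb1 (-0.051). With Krt14 below 1 TPM they were B2m (0.05), Golt1b (0.35), Fam162a (0.074), Plod3 (0.96), Junb (0.55), Igfbp6 (1.96), C3 (2.80), Csf1 (-0.26), Axin1 (-0.094), Gpi1 (0.24), Psmd9 (0.13), Smad4 (-0.51), Gata6 (0.90), Mrpl33 (-0.97), Itgb1 (-0.34), Prdx1 (0.21) and Cav2 (0.26). With Col1a1 at 1000 TPM or more they were Plod3 (0.30), Junb (0.54), C3 (0.40), Csf1 (-0.27), Smad4 (-0.23) and Gata6 (0.19), and with genes detected regressed out Egr1 (-0.11), Smad4 (-0.035) and Itgb1 (-0.17). With the S phase ranking they were Golt1b (0.090), Cyr61 (1.16), Klf4 (-0.25), Znrf3 (0.89), Psmd8 (0.30), Smad4 (-0.015), Yy1 (0.73), Prdx1 (0.15) and Cav2 (0.14). With each set left out in turn the rest changed sign, over a range from -1.23 to 0.83 for Smad3, -0.53 to 1.22 for Smad4, -1.41 to 0.054 for Kdm5b, -0.50 to 0.34 for Gata6, -1.17 to 0.46 for Yy1, -0.25 to 0.32 for Itgb1 and -0.067 to 0.048 for Cdh11.

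The call rests on 2 library sets that share no labelled culture, and on cells sorted by genes of the same libraries. Depth per cell is unknown, so a level of 0 is only a gene listed at 0.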

Other observations

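Gene families that form no list of their own were looked at after their values were seen, so their counts are descriptions. All 10 Hist1h2a genes tested, which encode the core histone H2A, were higher in top-score fibroblast-like cells, by 2.42 to 4.29 on the log2(TPM + 1) scale with a median of 3.35. None of 10 Hist1h2b and 9 Hist1h3 genes passed limma's threshold (median differences 0.52 and 1.10), and 2 of 10 Hist1h4 and 2 of 5 Hist1h1 genes did. Copies of these genes are nearly identical and multiply mapped reads were discarded, so the value of any single copy is uncertain. Of 17 genes with symbols that start with Tuba, Tubb or Tubg, 6 were higher, all of them tubulin genes. The 17 include Tubgcp2 to Tubgcp6, which encode proteins of the gamma-tubulin complex and were not called. Tubb5, Tuba1b, Tuba1c and Tubb4b, among the 6, also stand in the list of chromosome structure. Of 9 annexin genes 2 were lower, Anxa5 and Anxa2. Over all genes tested, 1.81% were called higher and 0.106% lower.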
